A study of Mus musculus with 2 samples.

Results

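Transcription factor genes of the liver, 9 in number, were followed through 2 single-cell RNA libraries: Onecut1, Onecut2, Foxq1, Hnf4a, Foxa1, Foxa2, Foxa3, Cebpa and Prox1. They were picked by gene symbol, and all 9 were found among the 33696 gene rows of both count matrices. The list was drawn up with earlier results of these libraries known, so the differences between libraries given here are descriptions and were not tested. One library came from liver of mice labelled SLC22A18-/-, homozygous knockout for the solute carrier gene Slc22a18, and the other from liver of mice labelled SLC22A18+/+, the wild type. Each label describes 1 sample of murine liver tissue, and the sources used here give no strain, age, sex, number of animals, deleted exons or further treatment.

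There was 1 library per genotype and therefore no replicate check. The knockout-labelled library held 103478998 UMIs (unique molecular identifiers, 1 per counted RNA molecule) and the wild-type library 105556354, of which 11104 and 12002 cells were kept with medians of 5848 and 5344.5 UMIs. The libraries shared 38 cell barcodes. A level is given as UMIs per 1000000 UMIs of the cell class (CPM) with an exact Poisson 95% interval, a ratio is the level in the knockout-labelled library over that in the wild-type library with an exact 95% interval, and both intervals cover counting error only. Slc22a18 itself was detected in both, with 2051 UMIs in kept cells labelled knockout against 2353 in the wild type (ratio 0.876, 0.825 to 0.930), and in hepatocytes, where 1503 and 1600 of these UMIs fell, the ratio was 0.921 (0.858 to 0.989). The ratio was lower in Kupffer cells (0.469, 0.350 to 0.623, from 76 and 143 UMIs) and endothelial cells (0.379, 0.244 to 0.576, from 31 and 90 UMIs). In B cells, T cells, conventional dendritic cells, and stellate cells and fibroblasts its interval included 1. The knockout label could not be checked in this way, because 3' reads from an undeleted end of the gene would still be counted, and each direction below is one between 2 libraries as labelled.

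Hepatocytes, the metabolic cells of the liver, are kept in their identity by a network of factors that bind one another's promoters and enhancers. Hnf4a is the nuclear receptor at its centre, Foxa1, Foxa2 and Foxa3 open chromatin at liver enhancers, Cebpa drives genes of glucose and lipid metabolism, and Onecut1 (HNF-6) and Onecut2 are cut-homeodomain factors needed for hepatocyte and bile duct development. Prox1 acts in hepatoblasts and adult hepatocytes and also sets the identity of lymphatic endothelium, and Foxq1 is a forkhead factor outside the Foxa group. Onecut1 is known as an activator of Foxa2 and Hnf4a.

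Promoters of that circuit are shown first, because Onecut1 and Foxa2 were among the members with the largest ratios and Hnf4a, a reported target of Onecut1, differed least. RefSeq windows on GRCm38.p6 covered 7 of the 9 members with 11 windows, and the 250 bases before each start were searched on both strands. Capitals mark the motif found: the Onecut core ATTGAT, or its reverse complement ATCAAT, in Foxa2 (chr2:148046970-148047219, minus strand) and Hnf4a (chr2:163506607-163506856, plus strand), and the palindromic E-box CACGTG in Onecut1 (chr9:74861671-74861920, plus strand). Each is written 5′ to 3′ on the gene's strand.
Onecut1: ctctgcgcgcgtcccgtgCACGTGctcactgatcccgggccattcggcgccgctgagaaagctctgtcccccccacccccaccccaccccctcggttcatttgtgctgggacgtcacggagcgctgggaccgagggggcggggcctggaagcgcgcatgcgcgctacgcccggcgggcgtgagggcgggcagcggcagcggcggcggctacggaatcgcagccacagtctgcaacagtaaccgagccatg
Foxa2: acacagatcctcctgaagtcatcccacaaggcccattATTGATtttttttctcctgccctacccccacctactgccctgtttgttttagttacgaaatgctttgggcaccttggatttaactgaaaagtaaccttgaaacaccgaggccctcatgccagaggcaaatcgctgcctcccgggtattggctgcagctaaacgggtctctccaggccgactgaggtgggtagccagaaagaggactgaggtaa
Hnf4a: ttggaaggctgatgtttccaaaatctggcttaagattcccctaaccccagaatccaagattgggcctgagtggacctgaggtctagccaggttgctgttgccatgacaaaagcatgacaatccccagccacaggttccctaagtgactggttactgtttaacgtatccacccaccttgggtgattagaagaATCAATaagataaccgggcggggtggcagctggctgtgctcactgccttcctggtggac

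The Onecut core began 213 bases before the start in the Foxa2 window shown and 59 bases before it in the Hnf4a window shown. All other windows of these genes lacked it, among them the Hnf4a window at chr2:163546905-163547154. Which start gave the counted RNA was not tested. Of the 32851 windows searched, 6.72% held the Onecut core. The E-box, the letters bound by clock and Myc factors, began 232 bases before the Onecut1 start and stood in 6.02% of the windows. A FOXA core, TGTTTAC, began 141 bases before the Foxa1 start (3.17% of windows), and the short HNF1 motif GTTAAT stood in the second Hnf4a window and in another Foxa2 window (6.43% of windows). The other FOXA core TATTTAC (2.73% of windows), the HNF4 core CAAAGTCCA (0.384%) and the CEBP core TTGCNNAA (9.56%) were in none of the members' windows. No searched motif overlapped another in these windows, and a match is a run of letters only.

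Cells were grouped into 33 clusters without use of the 9 genes, and 12 cell classes were named from marker genes, of which 7 had at least 100 cells in each library. Hepatocytes were 3281 cells in the knockout-labelled library and 3366 in the wild-type library, in 6 clusters, with 5378 and 4860.5 UMIs per cell at the median. All 12 hepatocyte markers (Apob, Ahsg, Cps1 and others) were detected in them, at a summed 13599 and 13451 CPM, and at 990 to 2884 CPM in the other classes apart from mesothelial cells. Mesothelial cells held 8421 and 4923 CPM of these markers, and plasmacytoid dendritic cells held 2690 CPM in the knockout-labelled library against 1498 CPM in the wild-type library. Beside this, the 48 and 44 mesothelial cells had Onecut1 at 119 and 30.3 CPM and Prox1 at 189 and 78.0 CPM, and the part of hepatocyte RNA in those values was not tested. Levels are compared between classes within a gene and not between genes.

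The Onecut genes were genes of hepatocytes and bile duct cells. Onecut1 reached 209 CPM (203 to 214) in hepatocytes of the knockout-labelled library and 46.4 CPM (43.9 to 49.0) in those of the wild-type library. In cholangiocytes, the bile duct cells, it stood at 205 CPM (179 to 234, 67 cells) and 182 CPM (155 to 212, 55 cells). The order of the 2 classes therefore differed by library: cholangiocytes lay above hepatocytes in the wild-type library with intervals apart, and the intervals overlapped in the knockout-labelled library. T cells, which should lack the gene, held 4.61 and 1.34 CPM, and 2.64% and 0.847% of them carried a UMI.

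Onecut2 was led by cholangiocytes in both libraries, at 469 CPM (429 to 512) and 445 CPM (403 to 490). Hepatocytes followed at 403 CPM (396 to 411) and 339 CPM (332 to 346), with intervals apart from cholangiocytes in each library. Among the remaining named classes, mesothelial cells came next with 189 and 182 CPM, beside their high level of hepatocyte markers, whose part in these values was not tested. Plasmacytoid dendritic cells held 60.9 CPM of Onecut2 against 8.93 CPM, and 62.4 CPM of Onecut1 against 0 of 109 cells in the wild-type library. Those 41 Onecut1 UMIs lay in 5 of 83 cells, with 25 in 1 cell.

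Foxq1 and Foxa3 were highest in hepatocytes. Foxq1 stood at 173 CPM (169 to 178) and 58.9 CPM (56.1 to 61.8) in hepatocytes and at 25.3 and 12.1 CPM in cholangiocytes. Foxa3 stood at 98.1 CPM (94.5 to 102) and 103.4 CPM (99.7 to 107) in hepatocytes, against 14.98 and 25.2 CPM in cholangiocytes. Mesothelial cells, with their high hepatocyte markers, came second for both, at 77.0 and 34.7 CPM of Foxq1 and 35.0 and 43.3 CPM of Foxa3, and the wild-type Foxq1 interval there (14.97 to 68.3) overlapped that of hepatocytes. Hnf4a was highest in hepatocytes too, at 279 CPM (273 to 286) and 274 CPM (268 to 281). Mesothelial cells came second again, at 128 and 147 CPM, and cholangiocytes held 56.2 and 44.9 CPM.

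Foxa1 and Foxa2 reached their wild-type maximum in bile duct cells. Foxa1 had 43.1 CPM (31.5 to 57.5) and 38.4 CPM (26.7 to 53.4) in cholangiocytes against 17.0 and 12.5 CPM in hepatocytes, with intervals apart in both libraries. Foxa2 had 58.1 CPM (44.5 to 74.4) and 54.8 CPM (40.7 to 72.2) there. Its hepatocyte level was 37.1 CPM (34.9 to 39.5) in the wild-type library, under cholangiocytes, and 72.0 CPM (68.9 to 75.1) in the knockout-labelled library, where the 2 intervals overlapped.

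Cebpa was highest in a macrophage class. Kupffer cells, macrophages that live in the sinusoids, held 152 CPM (146 to 159) and 181 CPM (173 to 188), hepatocytes 107 CPM (103.3 to 111) and 134 CPM (130 to 138), and monocytes 83.1 and 83.7 CPM. Cebpa was lower in the knockout-labelled library in Kupffer cells as well as in hepatocytes, with ratios of 0.844 (0.793 to 0.898) and 0.800 (0.763 to 0.840). Endothelial cells, at 31.2 and 31.1 CPM, gave 1.003 (0.907 to 1.11).

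Prox1 was highest in hepatocytes and bile duct cells and was also found across endothelial cells. Hepatocytes had 311 CPM (304 to 317) and 265 CPM (259 to 271), cholangiocytes 289 CPM (258 to 324) and 281 CPM (247 to 317), and neighbouring intervals overlapped in both libraries. Endothelial cells held 49.99 CPM (47.2 to 52.9) and 55.1 CPM (52.3 to 58.0). Endothelial cells that carried at least 2 of the lymphatic markers Mmrn1, Ccl21a and Pdpn numbered 4 and 11, and each of them held Prox1, at 341 CPM (205 to 532) and 1048 CPM (913 to 1198). Those 11 cells gave 216 of the 1450 endothelial Prox1 UMIs of the wild-type library. The other endothelial cells held Prox1 at 49.3 CPM (46.5 to 52.2) and 47.2 CPM (44.6 to 49.95), with a UMI in 686 of 2567 and 657 of 2717 cells.

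**Figure D1:**
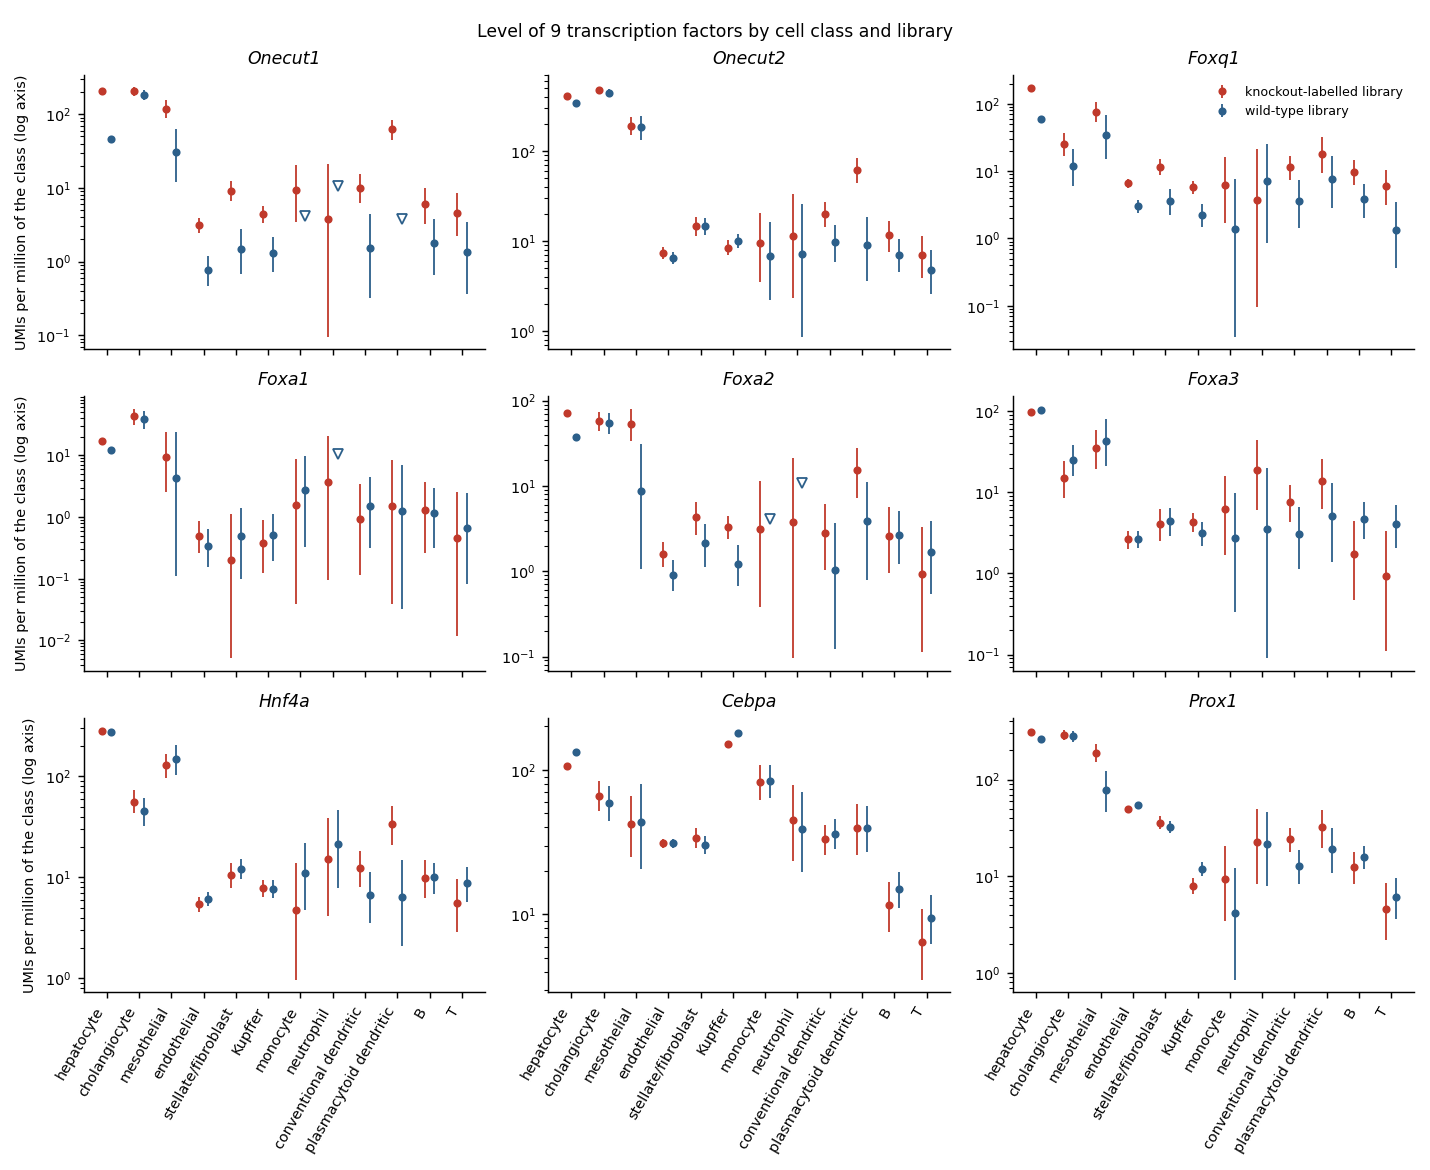
UMIs per 1000000 of the class (log axis) for each of the 9 genes in the 12 named cell classes, for the knockout-labelled (red) and wild-type (blue) library, with exact Poisson 95% intervals; open triangles mark the level of 3 UMIs where none was found. The red and blue points lie apart in hepatocytes for Onecut1 and Foxq1 and close together in cholangiocytes for Onecut1, and Cebpa peaks in Kupffer cells.

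In hepatocytes, Onecut1 and Foxq1 were the members that differed most between the libraries. A gene was counted as higher or lower when the ratio was at least 2 in that direction, at least 50 UMIs were summed, the interval excluded 1 and at least 5% of the cells in the higher library held a UMI. Of the 9 members, 2 passed, both higher in the knockout-labelled library and none lower, beside 45 of all 14882 genes with enough UMIs (0.302%) that were higher and 18 (0.121%) that were lower. The members were listed with this contrast known, so nothing is read from that share.

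Onecut1 gave 5958 UMIs against 1298 in hepatocytes, a ratio of 4.50 (4.24 to 4.78). A UMI of the gene was found in 55.9% (54.2 to 57.6%) of hepatocytes in the knockout-labelled library and in 22.8% (21.4 to 24.2%) in the wild-type library, and after each cell was thinned to 2561 UMIs, with 557 and 771 shallower cells left out, in 38.6% and 10.6%. Cells with at least 5 UMIs made up 10.8% and 0.921%. Foxq1 gave 4950 against 1649 UMIs, a ratio of 2.94 (2.78 to 3.11), with a UMI in 53.3% and 27.7% of hepatocytes, and in 33.3% and 14.9% after thinning. T cells with a Foxq1 UMI were 3.81% and 0.636%, at medians of 6065 and 5815.5 UMIs per cell.

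Foxq1, at 2.94, had the lowest ratio of the members above the limit of 2, and Foxa2 lay just outside that limit. Its 2054 and 1039 UMIs gave 1.94 (1.80 to 2.09), and it passed the limit with doublet calls kept and with each cell weighted equally. Cells with a Foxa2 UMI were 34.5% and 20.8% of hepatocytes, and 17.0% and 8.63% after thinning, beside 0.587% and 1.06% of T cells without thinning. Its relative Foxa1 gave 486 and 349 UMIs and a ratio of 1.37 (1.19 to 1.57). Foxa3, with 2799 and 2893 UMIs, gave 0.949 (0.900 to 0.999).

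The ratios of the other members ranged from 0.800 to 1.19. Onecut2, the paralog of Onecut1, had a ratio of 1.19 (1.16 to 1.22) and Prox1 1.17 (1.14 to 1.21). Hnf4a gave 7973 and 7679 UMIs, a ratio of 1.02 (0.986 to 1.05) that includes 1. Cebpa was the member with the lowest ratio, 0.800, from 3055 and 3743 UMIs. In scale, the median-of-ratios normalization divides each of these values by 1.045, under which Hnf4a came to 0.974.

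**Figure D2:**
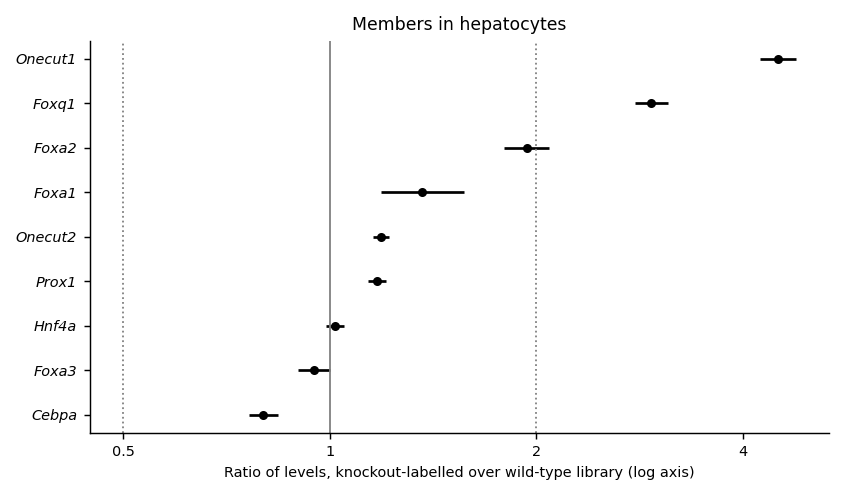
Ratio of levels in hepatocytes, knockout-labelled over wild-type library (log axis), with exact 95% intervals from the 2 UMI counts; the solid line marks 1 and the dotted lines mark 0.5 and 2. Onecut1 (4.50) and Foxq1 (2.94) lie to the right of 2, the interval of Foxa2 (1.94) spans 2, and Cebpa (0.800) is the leftmost member.

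**Figure D3:**
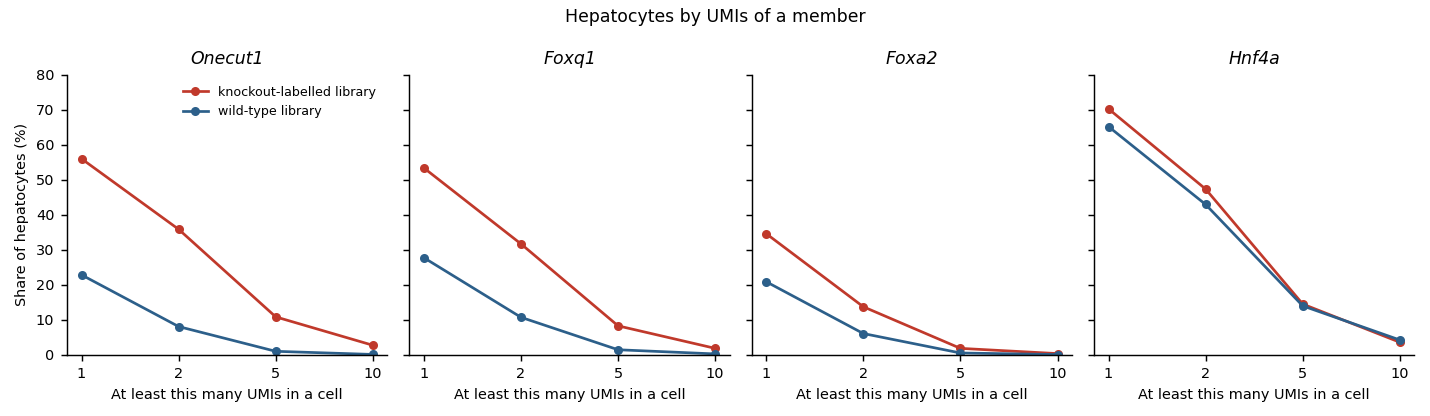
Share of hepatocytes (%) that held at least 1, 2, 5 or 10 UMIs of Onecut1, Foxq1, Foxa2 or Hnf4a in each library. The red curve of the knockout-labelled library runs above the blue one for Onecut1 at every threshold (55.9% against 22.8% at 1 UMI, 2.65% against 0.0297% at 10), and the Hnf4a curves run close together.

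Measured genes on the opposite strand overlap 3 of the members, and the sources used here do not say whether counting used strand. Hnf4aos, opposite Hnf4a, had 12398 and 11176 UMIs in hepatocytes (ratio 1.09, 1.06 to 1.12), and Prox1os, opposite Prox1, had 2740 and 2245 (1.20, 1.13 to 1.27). Gm28172, also opposite Prox1, had 113 and 89 UMIs, and Gm45091, opposite Cebpa, had 20 and 10. Only if strand was not used could reads of such partners be mixed, and the Hnf4a, Prox1 and Cebpa values would then be less certain. This was not tested. A530084C06Rik, opposite Foxq1, and Gm20649, on the strand of Onecut1, also overlap members and had no row in the count matrices. Whether reads of Gm20649 were counted as Onecut1 was not tested.

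Other classes were read in the same way. In cholangiocytes the Onecut1 ratio was 1.13 (0.917 to 1.39) and that of Foxa2 1.06 (0.718 to 1.57), from 219 and 166 and from 62 and 50 UMIs. Foxq1 gave 2.10 there (1.01 to 4.69), from 27 and 11 UMIs. Cholangiocytes held hepatocyte markers at 2884 and 2257 CPM, and the part of hepatocyte RNA in their ratios was not tested. The difference between hepatocyte and cholangiocyte ratios was not tested. In classes where the level was under 10% of that in the highest class, Onecut1 and Foxq1 passed in stellate cells and fibroblasts (6.26 and 3.24), Foxq1 in endothelial cells (2.22) and Onecut2 in conventional dendritic cells (2.05, where 3.39% of all genes were higher). The share of all genes that were higher was 0.494% in stellate cells and fibroblasts and 0.072% in endothelial cells, and free hepatocyte RNA cannot be told apart from the cells' own at such levels.

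The hepatocyte clusters differed in one property that moved with the members. Cluster 21, with 509 and 640 cells, held the nuclear RNA Malat1 at 1185 and 1230 CPM, against 13345 to 46347 CPM in the other 5 clusters, and the nuclear RNA Neat1 at 80.7 and 78.7 CPM. In it Onecut1 was at 12.1 and 16.5 CPM, a ratio of 0.736 (0.490 to 1.09) whose interval includes 1. In the other 5 clusters Onecut1 was higher in the knockout-labelled library, with ratios from 3.17 (cluster 8) to 5.18 (cluster 19) and every interval above 1. Without cluster 21 the Onecut1 ratio over hepatocytes was 4.52.

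All 6 clusters had more Foxq1 in the knockout-labelled library, with ratios from 1.72 (1.44 to 2.07) in cluster 21 to 4.26 (1.95 to 11.03) in cluster 19, which rested on 61 and 7 UMIs. Foxa2 was above 1 in all 6, from 1.44 to 1.99, and the interval excluded 1 in 5 of them. Onecut2 ranged from 0.928 to 1.24 and Prox1 from 1.01 to 1.12. Hnf4a ranged from 0.842 to 1.11, with 2 of 6 above 1.

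Levels of most members were low in cluster 21 in both libraries. Onecut2 held 58.9 and 49.0 CPM there against 181 to 559 CPM elsewhere, Prox1 61.5 and 61.1 CPM, and Hnf4a 116 and 118 CPM. Cebpa went the other way and was highest in cluster 21, at 259 and 264 CPM, followed by cluster 8 at 191 and 171 CPM. By GENCODE vM21 on GRCm38, Cebpa (chromosome 7, 35119293 to 35121928) spans 2636 bases with a transcript of 1 exon, and Foxq1 (chromosome 13, 31556134 to 31560976) has 1 exon over 4843 bases. Foxa2 and Foxa1, of 4093 and 6289 bases, were low in cluster 21, with Foxa2 at 20.7 and 13.8 CPM and Foxa1 at 3.25 and 4.74 CPM. Onecut1 (chromosome 9, 74861921 to 74891781) has 2 exons over 29861 bases, and Hnf4a (chromosome 2, 163506808 to 163572910) spans 66103 bases. Foxa3, over 10255 bases, held 82.2 and 70.8 CPM in cluster 21, within the 63.2 to 122 CPM of the other clusters. Foxq1 held 81.6 and 47.4 CPM in cluster 21. Whether gene length or exon number had a part in these levels was not tested.

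Cluster 8 stood apart in another way, with 1215 and 1335 UMIs per cell at the median, mitochondrial shares of 7.04% and 9.16% and albumin (Alb) at 29354 and 36910 CPM. Clusters 8 and 21 together took a smaller part of the hepatocytes in the knockout-labelled library, with 10.9% and 15.5% against 14.6% and 19.0%. The Cebpa ratio was 0.812 (0.735 to 0.897) in cluster 6, 0.774 (0.702 to 0.854) in cluster 7 and 1.12 (0.987 to 1.26) in cluster 8. It was 1.02 in cluster 18, 0.636 (0.395 to 1.03) in cluster 19 and 0.982 (0.899 to 1.07) in cluster 21. Over all hepatocytes it was 0.792 without cluster 21 and 0.932 with each cell weighted equally, and the part of the cluster mix was not tested. Alb over all hepatocytes was at 8415 and 11560 CPM, a ratio of 0.728 (0.724 to 0.732), and its part in the members' ratios was not tested. Markers of other classes summed in hepatocytes to 495 and 372 CPM for Kupffer cells (10 of 10 found), 421 and 444 CPM for endothelial cells and 145 and 208 CPM for cholangiocytes (9 of 9), whose part was not tested.

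**Figure D4:**
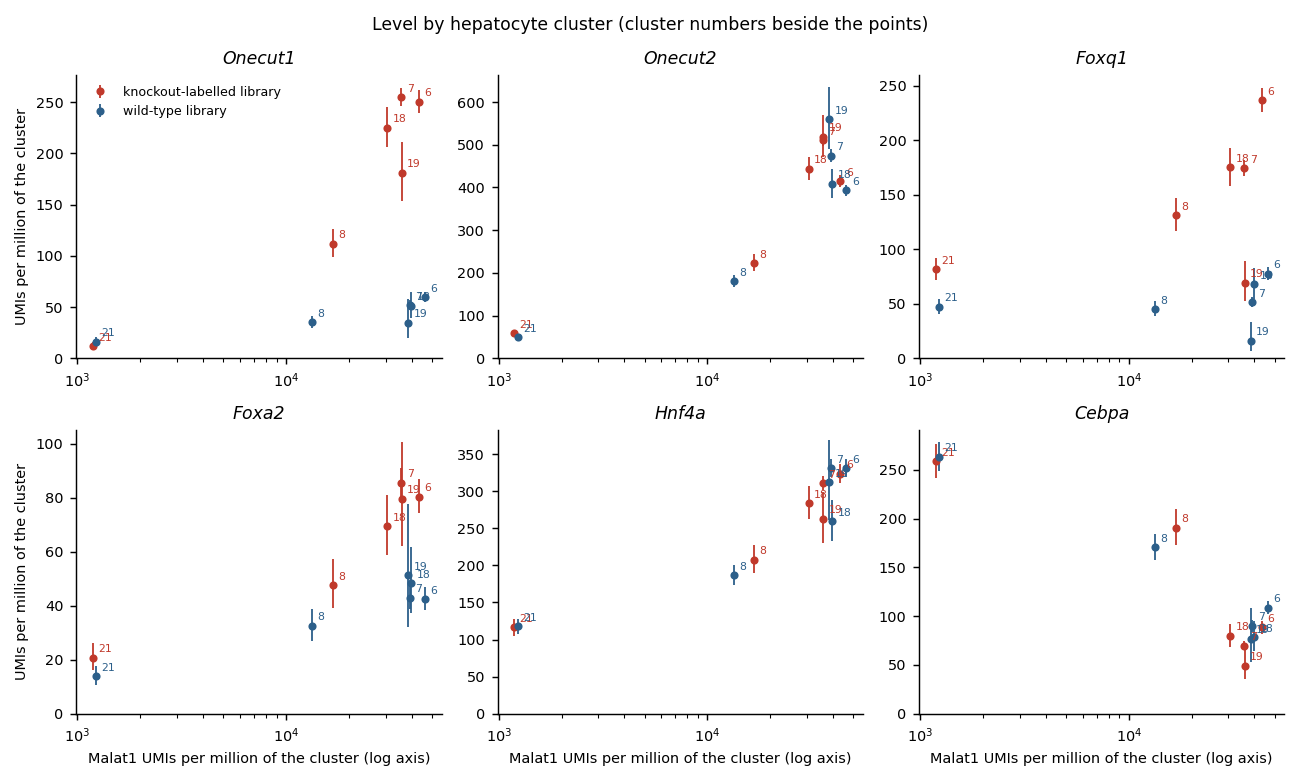
Level of 6 members (UMIs per 1000000 of the cluster, with exact Poisson 95% intervals) against the Malat1 level of the 6 hepatocyte clusters (log axis), with cluster numbers beside the points, for the knockout-labelled (red) and wild-type (blue) library. Cluster 21 lies far to the left; Onecut1 is at 12.1 and 16.5 CPM there, and Cebpa is at its highest, 259 and 264 CPM.

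When hepatocytes were split into 3 ranges of Malat1 instead, the Onecut1 ratio was 4.39 (3.76 to 5.14) in the lowest, 4.55 (4.15 to 4.999) in the middle and 4.11 (3.73 to 4.53) in the highest. Foxq1 gave 2.34, 3.33 and 2.95 in the same order. Onecut2 gave 1.81 (1.67 to 1.96) in the lowest range but 1.06 in each of the others, and the lowest range held Malat1 at 7909 CPM in the knockout-labelled library against 4627 CPM in the wild-type library. Hnf4a went from 1.23 (1.14 to 1.33) in that range to 0.937 (0.894 to 0.981) in the middle.

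Hepatocytes take on different work from the portal end of the lobule to the central vein, and cells were placed along that axis by a score of pericentral genes (Glul, Cyp2e1 and others) against periportal genes (Cyp2f2, Hal and others). The score was divided into 3 bins, which are ranges and not cell types, and 1159 cells lay within 0.1 of a limit. The periportal bin held 1015 and 1201 cells, the middle bin 1083 and 1132, and the pericentral bin 1183 and 1033. Cyp2e1, one of the genes of the score, was at 129 and 121 CPM in the periportal bin and at 1590 and 1398 CPM in the pericentral bin.

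Each bin had more Onecut1 in the knockout-labelled library. The levels were 174 and 50.7 CPM in the periportal bin, 238 and 50.1 CPM in the middle bin and 202 and 37.4 CPM in the pericentral bin. The ratios were 3.43 (3.07 to 3.83), 4.75 (4.33 to 5.23) and 5.40 (4.81 to 6.09), and without cluster 21 they were 3.79, 4.67 and 5.37. The difference between bins was not tested. Within the wild-type library, the pericentral bin stood at 0.737 (0.636 to 0.852) of the periportal bin. In the knockout-labelled library that value was 1.16 (1.08 to 1.25), and it turned to 0.915 (0.852 to 0.983) without cluster 21.

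Onecut2 and Prox1 were lower in the periportal bin than in the middle and pericentral bins. Onecut2 stood at 285 and 258 CPM in the periportal bin, 422 and 381 CPM in the middle bin and 459 and 370 CPM in the pericentral bin. Its pericentral over periportal ratio was 1.61 (1.53 to 1.69) in the knockout-labelled library and 1.43 (1.36 to 1.51) in the wild-type library. Prox1 stood at 235 and 218 CPM, 336.9 and 290.5 CPM, and 332 and 280 CPM in the same order, highest in the middle bin. The Prox1 ratio was 1.42 (1.33 to 1.501) and 1.28 (1.21 to 1.36). Without cluster 21 these ratios were smaller, 1.29 and 1.22 for Onecut2 and 1.15 and 1.12 for Prox1, with every interval above 1.

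Foxq1 and Cebpa were higher at the periportal end. Foxq1 stood at 199 and 72.5 CPM in the periportal bin, 201 and 61.7 CPM in the middle bin and 131 and 41.7 CPM in the pericentral bin, a periportal over pericentral ratio of 1.52 (1.41 to 1.64) and 1.74 (1.53 to 1.99). Cebpa stood at 144 and 161 CPM, 93.98 and 129 CPM, and 96.4 and 112 CPM from the periportal to the pericentral bin. Its periportal over pericentral ratio was 1.498 (1.37 to 1.64) and 1.44 (1.33 to 1.57). Read the other way, pericentral over periportal, Cebpa stood at 0.667 and 0.694, and without cluster 21 at 0.853 (0.763 to 0.954) and 0.794 (0.717 to 0.880). Between the libraries, Foxq1 was higher in the knockout-labelled library by 2.74, 3.26 and 3.13 times from the periportal to the pericentral bin. Foxa2 had ratios of 1.72, 2.22 and 1.75 in that order, so it passed the limit of 2 in the middle bin.

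The remaining Foxa genes and Hnf4a had pericentral over periportal ratios between 1.01 and 1.30. Hnf4a stood at 253 and 262 CPM in the periportal bin and 271 and 264 CPM in the pericentral bin, a pericentral over periportal ratio of 1.07 (1.01 to 1.14) and 1.01 (0.951 to 1.07) that was 0.917 and 0.895 without cluster 21. Foxa3 gave 1.29 (1.16 to 1.43) and 1.12 (1.02 to 1.24), both intervals above 1, and Foxa2 gave 1.23 (1.09 to 1.39) and 1.21 (1.03 to 1.41), which came to 1.002 and 1.03 without cluster 21. Foxa3 came to 1.22 (1.09 to 1.37) and 1.03 (0.931 to 1.15) without that cluster. Foxa1, with 95 and 91 UMIs in the periportal bin, gave 1.25 (0.969 to 1.61) and 1.30 (0.978 to 1.73), intervals that include 1, and 0.990 and 1.15 without cluster 21. Mitochondrial shares in the pericentral bin were 1.66% and 2.94%, and their part in these levels was not tested.

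**Figure D5:**
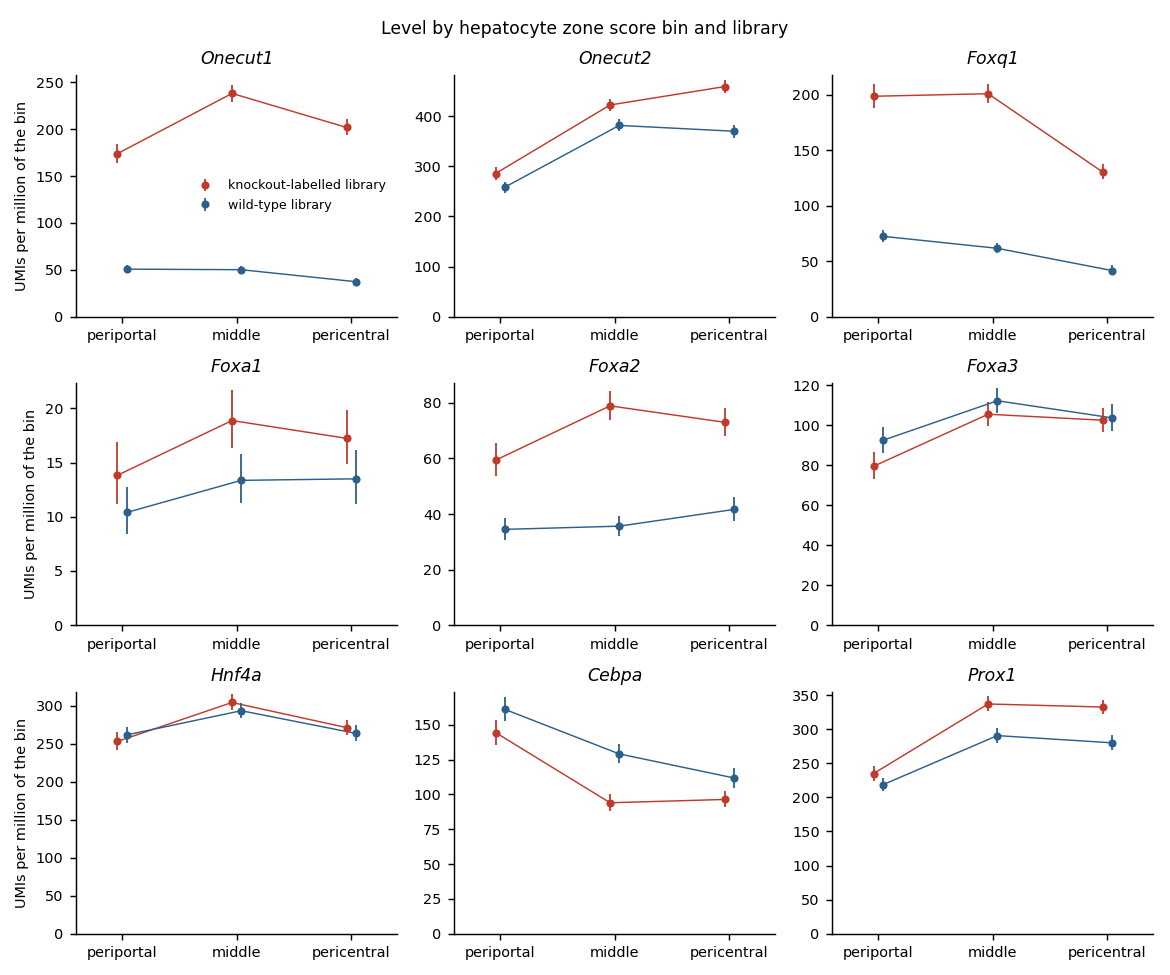
UMIs per 1000000 of the bin for the 9 genes in the periportal, middle and pericentral bins of the zone score, in the knockout-labelled (red) and wild-type (blue) library, with exact Poisson 95% intervals and axes from 0. Onecut2 and Prox1 are lower in the periportal bin, Foxq1 is lower in the pericentral bin and Cebpa is highest in the periportal bin. The red Onecut1 points lie 3.43 to 5.40 times above the blue ones.

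Other factors of the hepatocyte network were read beside the members. Over the 16695 genes with at least 20 hepatocyte UMIs the median log2 ratio was 0.06, and over the 9 members it was 0.25. Of 37 further hepatocyte transcription factors, 36 were measured, 1 was higher and 1 lower, with a median of 0.05. Beside these, 0.302% of all genes were higher and 0.121% lower. This list and those below were chosen with earlier results known, so nothing is read from their counts. Hhex, a homeobox factor of liver development, was at 229 and 110 CPM, a ratio of 2.08 (1.99 to 2.17). Nr0b2, the nuclear receptor SHP that represses bile acid synthesis, was at 24.6 and 56.5 CPM, a ratio of 0.436 (0.398 to 0.476).

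Among 33 other genes of the CUT, FOX, CEBP, HNF4 and PROX families, 25 were measured, none was higher and 1 was lower, with a median log2 ratio of 0.04. That gene was Cux2, a cut-homeodomain factor with more transcript in female than in male mouse liver, at 26.8 and 68.2 CPM and a ratio of 0.393 (0.361 to 0.428). Growth hormone, a known regulator of Onecut1 and Cux2 in liver, was covered by a list of 11 genes, all measured. Of these, 2 were higher and 1, Cux2 counted again, lower (median 0.23), beside 0.302% and 0.121% of all genes. Both lists were chosen with earlier results known, so nothing is read from their counts. A part of growth hormone was not tested. Socs2 had a ratio of 3.58 (3.29 to 3.89) and Cish 2.37 (2.14 to 2.64), both feedback inhibitors of the hormone's signal.

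Reported target genes of the members lay on both sides of 1. Their lists too were chosen with earlier results known. Nothing is read from the counts below, which stand beside 0.302% of all genes higher and 0.121% lower. Of 12 genes reported as Onecut1 targets, Foxa2 and Hnf4a among them, 1 was higher and 1 lower, with a median log2 ratio of 0.0062. Cyp7a1, which limits the rate of bile acid synthesis from cholesterol, was at 260 and 122 CPM with a ratio of 2.14 (2.05 to 2.22), and G6pc, the glucose-6-phosphatase of gluconeogenesis, was at 230 and 922 CPM with a ratio of 0.249 (0.242 to 0.256). Of 26 reported targets of Hnf4a, the Foxa factors and Cebpa, 25 were measured, none was higher and 2 were lower, with a median of -0.14. Those were Igfbp1, an insulin-like growth factor binding protein (0.313, 0.287 to 0.340), and Tat, the tyrosine aminotransferase (0.456, 0.447 to 0.465).

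Lists of other cell types held no gene past the limit in hepatocytes. Of the biliary factors, 6 of 9 were measured (median log2 ratio -0.04), with the most counted, Tead1, at a ratio of 0.955. Of the lymphatic genes, 6 of 8 were measured (-0.15), with Nr2f2 at 0.930 and Nfatc1 at 1.05. All 10 myeloid factors were measured (-0.15), with the most counted, Cebpb, at 0.803. The 15 pericentral and 15 periportal genes of the zone score also had none past the limit, with medians of 0.01 and -0.23. Cps1 and Ass1 were the most counted periportal genes, at ratios of 1.07 and 0.708.

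Genes with the pattern most like a member were sought by Pearson r of log2(CPM + 1), as a description. Over 14 points, the 7 larger classes in each library, genes among the 3 closest to Onecut1 were Cyp4a10 (r = 0.975) and Cyp4a14 (0.964), whose hepatocyte ratios were 1.92 and 1.78. Those among the 3 closest to Foxq1 were Cyp4a10 (0.969) and Trim80 (0.961). Onecut2 was closest to Sec14l4, Kif21a and Car5a (0.994 to 0.995), and Hnf4a to Abcc2, Slc17a3 and Cyp3a59 (0.996 to 0.997). The points of a library share its free RNA and depth, and all these genes are high in hepatocytes.

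Over the 6 points of hepatocyte bins and libraries, other genes led. Onecut1 was closest to Zfp655, Cluh and Hsd17b2 (r from 0.992 to 0.996), and Foxq1 to Aqp11, Gtpbp4 and Slc40a1 (0.991 to 0.993). Onecut2 was closest to Stat5a, N4bp2 and Lims1 (0.999 each at 3 digits), and Jarid2 (0.995) and Khnyn (0.992) were among the 3 closest to Hnf4a. Hsd17b2 had a hepatocyte ratio of 1.48 and Aqp11 one of 1.64, each under that of the member it followed.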

How the data were processed

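Liver cells were measured by droplet single-cell RNA sequencing (Chromium 3' v3 kit, per the labels' protocols), with 1 library per genotype. The deposited values are raw UMI counts per gene and barcode. Per the file headers they come from Cell Ranger 8.0.1; the submitters' processing notes also name STAR and mm10. Filters asked for 500 UMIs, 300 genes and no more than 20% mitochondrial UMIs in a cell. Doublets called by the Scrublet method (scanpy 1.11.5; shared threshold 0.276; 354 and 429 calls, 3.09% and 3.45%) were removed. Free RNA was not subtracted. Cells were clustered together on 2000 variable genes without the 9 members and Slc22a18 (30 components, 15 neighbours, Leiden resolution 1.0). Clusters were named from marker lists. They stayed unnamed with a median doublet score of at least 0.15, under 3 markers in 10% of their cells, or a second class scoring at least 1.5 and 0.70 of the first. The erythroid list could never be that second class, and the lymphatic list could not where the first class was endothelial. A low first score, more top genes from another class's list, or few UMIs with no marker among the top genes also left a cluster unnamed. Unnamed clusters held 17.2% and 18.4% of cells. These limits and the shared threshold were set after seeing the data.

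Counts were summed per class and library; ratios have exact Clopper-Pearson intervals, log2 ratios had 0.5 added to each sum, and 3 counts served as the floor. No p-value was computed. Tested on simulated data for hepatocytes (8250 genes, 200 changed), the size limits recovered 100% of genes changed 2.5-fold and of those changed 4-fold. They called 0.0341% of unchanged genes. Recovery of changes nearer the limit of 2 was not measured. With 1 library per genotype, these shares cannot stand for differences between animals or libraries. The members and gene lists were chosen with earlier results of these data known. All members were named; other genes were named from each list when past the limits, or else as its 2 most counted, and as the 3 most alike in pattern (at least 200 UMIs); a few genes that this rule names are not reported here. Scaling, doublets, mitochondrial and UMI limits, cell weighting, resolution, bin weighting and the size limits were varied.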

Additional observations from a re-analysis of the deposited data

Results flagged for a closer look

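The Prox1 ratios of 2 classes lay on opposite sides of 1: 1.17 (1.14 to 1.21) in hepatocytes and 0.908 (0.840 to 0.981) in endothelial cells, each interval excluding 1. Whether the 2 ratios differ was not tested. Within the 6 hepatocyte clusters the Prox1 ratio ran from 1.006 to 1.115, with the interval above 1 in 2 of them. The part of the cluster mix in the hepatocyte ratio was not tested. Without the 4 and 11 endothelial cells that carried at least 2 of Mmrn1, Ccl21a and Pdpn, an alternative chosen after seeing the data, the endothelial ratio was 1.04 (0.963 to 1.13), from 1176 and 1234 UMIs.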

How the results depend on the processing

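No paired analysis was possible because each genotype has 1 library. Over 10 settings, the reported one included (scaling, doublets, mitochondrial and UMI limits, cell weighting, resolution, bin weighting, and leaving out hepatocyte cluster 21 or 18) the Onecut1 ratio in hepatocytes ran from 4.31 to 4.57, that of Foxq1 from 2.82 to 3.04 and that of Foxa2 from 1.86 to 2.05; Hnf4a ran from 0.974 to 1.02 and Cebpa from 0.766 to 0.932. Members past the limits numbered 2 or 3. In cluster 21 alone, chosen after seeing the data as was leaving it out, the Onecut1 ratio was 0.736, that of Foxq1 1.72, and 0 members passed, beside 12 higher and 30 lower genes; the cause was not tested. Pericentral over periportal in the knockout-labelled library, Onecut1 turned to 0.915 without cluster 21, and Hnf4a to 0.917 without it and to 0.9985 with the score as a log ratio of summed UMIs. Against 45 higher genes, 197 passed with at least 20 UMIs and no share of cells asked for, and 168 with a ratio of 1.5. Against 18 lower genes, these gave 132 and 107, median-of-ratios scaling 29 and leaving out cluster 21 gave 34. In cluster 21 alone Foxa1 came to 0.687 and Foxa3 to 1.16, on the other side of 1. In the 5 named classes under 100 cells in a library, levels rest on few UMIs (7 of Onecut1 in wild-type mesothelial cells), so small differences were not detectable there.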
